A study of Mus musculus with 5 samples.

Results

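The lipid droplet genes Plin2, Plin3, Plin5, Cidec, G0s2 and Fitm1 were followed in mouse liver under an atherogenic diet and under atorvastatin. These 6 genes were chosen from the platform annotation by name, as the probe sets whose single gene symbol is theirs. The choice was made with earlier results of these data known, so counts of these genes below are a description only. Each of the 6 genes has 1 such probe set, out of 12393 genes with 20380 probe sets that carry 1 symbol. The lipid droplet is the organelle in which cells keep triglyceride and cholesteryl ester as a core under a coat of phospholipid and protein. Perilipins coat its surface and control the access of lipases. Cidec joins small droplets into large ones, G0s2 inhibits the lipase that starts triglyceride breakdown, and Fitm proteins of the endoplasmic reticulum help to form new droplets. In hepatocytes these droplets hold the fat of a fatty liver, and several coat genes are known targets of the fatty acid sensing nuclear receptor PPAR alpha.

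Transcript levels were read from biotin-labelled cRNA on 5 oligonucleotide arrays, each hybridised with RNA pooled from the livers of a single group of mice of strain C57B/L. All mice were 8 weeks old and were kept for 2 weeks before feeding began. The groups received the atherogenic diet for 10 weeks with atorvastatin in the last 3 weeks, the atherogenic diet for 10 weeks, standard chow for 10 weeks, the atherogenic diet for 1 week, or standard chow for 1 week. Atherogenic feeds raise cholesterol in the blood, and atorvastatin inhibits the rate-limiting step of cholesterol synthesis. The sources used here do not give the composition of the diet, the dose of atorvastatin, the sex of the mice or how many livers went into a pool. The labels of the 1-week diet sample disagree, since the source name reads chow while title, description and protocols all read atherogenic. It was grouped by its title. There is 1 array per group, so no test was possible, no p-value or SD can be given, and every ratio below describes these 5 pools.

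Values are MAS5 signals, a linear brightness per probe set that the authors had scaled to the same trimmed mean on every array. Signals under 138.9, the 40th percentile over the 5 arrays together, were set to that floor. A ratio against a floored signal is a bound, written as at least N-fold. A probe set counted as measured in a comparison if it lay above the floor on at least 1 of the 2 arrays. A gene is called higher or lower where its ratio reached 2-fold. As the nearest thing to an error, the arrays of chow at 10 weeks and chow at 1 week share their feed but differ in time and age. Between them 4.63% of 13639 measured probe sets were past 2-fold. In the brightest signal quartile, where Plin2, Plin5 and G0s2 lie, 95% of probe sets in this pair differed by less than 1.85-fold. The limit was 1.94-fold in the quartile of Plin3 and 2.29-fold in that of Fitm1. None is given for Cidec, since in the dimmest quartile the floor itself narrows the difference. Relative to chow at 1 week, spike-in signals were 5.76 times as bright on the 10-week chow array and 1.05 to 1.87 times on the rest. The 18S ribosomal RNA control was 13944 on the atorvastatin array and 437 to 2185 on the others. The ratio of 3' to 5' signal of Actb, a sign of RNA quality, was 1.32 on the atorvastatin array. It was 1.17 on the diet and 1.73 on chow at 10 weeks, and 1.61 on the diet and 1.20 on chow at 1 week. The part of these differences in the results was not tested. All 10 hepatocyte markers lay above the floor on every array, and 3 to 4 of 7 adipocyte markers lay above it on each array. Of the adipocyte list, Fabp4, Car3 and Lipe were above the floor on all 5 arrays and Retn on 3, while Adipoq, Lep and Cidea were below it on all 5.

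The promoters of the 6 genes are shown because 4 of them changed past 2-fold on the long diet, in opposite directions, and a reader may want to see how their start regions compare. Each is the 250 bases before the annotated start, 5′ to 3′ on the strand of the gene, from RefSeq on build GRCm38.p6. All 6 genes matched, and the outermost start is shown for Plin5 and Cidec, which have more than 1. The windows are chr17:56117549-56117798 on the minus strand for Plin5, chr1:193273189-193273438 on the minus strand for G0s2, chr17:56290512-56290761 on the minus strand for Plin3 and chr14:55575424-55575673 on the plus strand for Fitm1. Those of Cidec and Plin2 are chr6:113435761-113436010 and chr4:86670060-86670309, both on the minus strand. Capitals mark matches, on either strand, to AGGTCA (the core of nuclear receptor sites), to AGGTCANAGGTCA with at most 2 mismatches (the repeat that PPAR binds), to the E-box CACGTG, to CCAAT, to TATAAA and to the GC box GGGCGG.
Plin5: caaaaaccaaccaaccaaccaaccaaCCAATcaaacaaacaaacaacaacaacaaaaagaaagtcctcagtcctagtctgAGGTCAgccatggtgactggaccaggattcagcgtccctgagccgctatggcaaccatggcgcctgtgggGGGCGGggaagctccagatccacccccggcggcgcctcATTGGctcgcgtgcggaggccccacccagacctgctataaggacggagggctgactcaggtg
G0s2: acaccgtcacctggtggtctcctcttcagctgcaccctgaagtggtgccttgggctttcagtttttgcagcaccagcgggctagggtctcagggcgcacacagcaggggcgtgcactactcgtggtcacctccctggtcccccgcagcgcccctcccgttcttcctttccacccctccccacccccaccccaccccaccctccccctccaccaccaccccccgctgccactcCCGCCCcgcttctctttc
Plin3: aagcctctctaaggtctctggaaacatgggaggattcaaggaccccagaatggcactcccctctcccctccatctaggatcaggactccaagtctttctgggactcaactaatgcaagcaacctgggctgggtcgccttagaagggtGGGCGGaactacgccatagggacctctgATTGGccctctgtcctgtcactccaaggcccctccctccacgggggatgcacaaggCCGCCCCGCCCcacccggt
Fitm1: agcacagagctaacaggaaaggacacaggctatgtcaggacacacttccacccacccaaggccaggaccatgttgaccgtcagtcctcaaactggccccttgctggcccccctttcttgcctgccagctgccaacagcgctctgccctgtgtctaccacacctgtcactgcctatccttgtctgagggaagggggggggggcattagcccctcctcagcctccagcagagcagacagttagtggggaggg
Cidec: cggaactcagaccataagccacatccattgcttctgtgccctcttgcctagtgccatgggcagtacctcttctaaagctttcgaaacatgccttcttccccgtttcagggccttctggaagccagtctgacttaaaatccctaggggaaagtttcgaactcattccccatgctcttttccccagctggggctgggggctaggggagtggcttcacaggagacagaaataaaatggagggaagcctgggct
Plin2: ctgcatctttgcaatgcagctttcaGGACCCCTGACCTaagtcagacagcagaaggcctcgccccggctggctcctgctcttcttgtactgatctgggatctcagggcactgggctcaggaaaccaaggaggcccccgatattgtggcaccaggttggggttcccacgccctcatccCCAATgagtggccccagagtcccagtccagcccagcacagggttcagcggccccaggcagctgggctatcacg
AGGTCA was found in the windows of Plin5, at positions -170 to -165 before the start, and of Plin2, at -218 to -213. It occurs in 4607 of 32851 promoter windows of this length. The repeat was found in the window of Plin2 alone among those printed, overlapping the core motif there, at -225 to -213, and occurs in 3.24% of all windows. CCAAT stood in the windows of Plin5, Plin3 and Plin2 (33.8% of all windows) and the GC box in those of Plin5, G0s2 and Plin3 (32.7%). Neither CACGTG (6.02%) nor TATAAA (12.4%) matched in any window printed. The Fitm1 and Cidec windows held none of the letters searched. These matches describe the letters of the windows and say nothing of binding. On chromosome 17, Plin5 lies next to Plin4, another perilipin gene, while 7 protein-coding genes stand between Plin5 and Plin3.

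After 10 weeks on the atherogenic diet the droplet genes split. The ubiquitous coat gene Plin3 and the droplet formation gene Fitm1 were higher than on chow, the perilipin gene Plin5 and the lipase inhibitor gene G0s2 were lower, and Plin2 and Cidec were not past 2-fold. All 6 members were measured, and 2 of them were past 2-fold higher and 2 past 2-fold lower, against 3.63% of 13850 probe sets higher and 3.44% lower. The median log2 ratio of the 6 was -0.25, and that of all measured probe sets was 0.04.

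**Figure D1:**
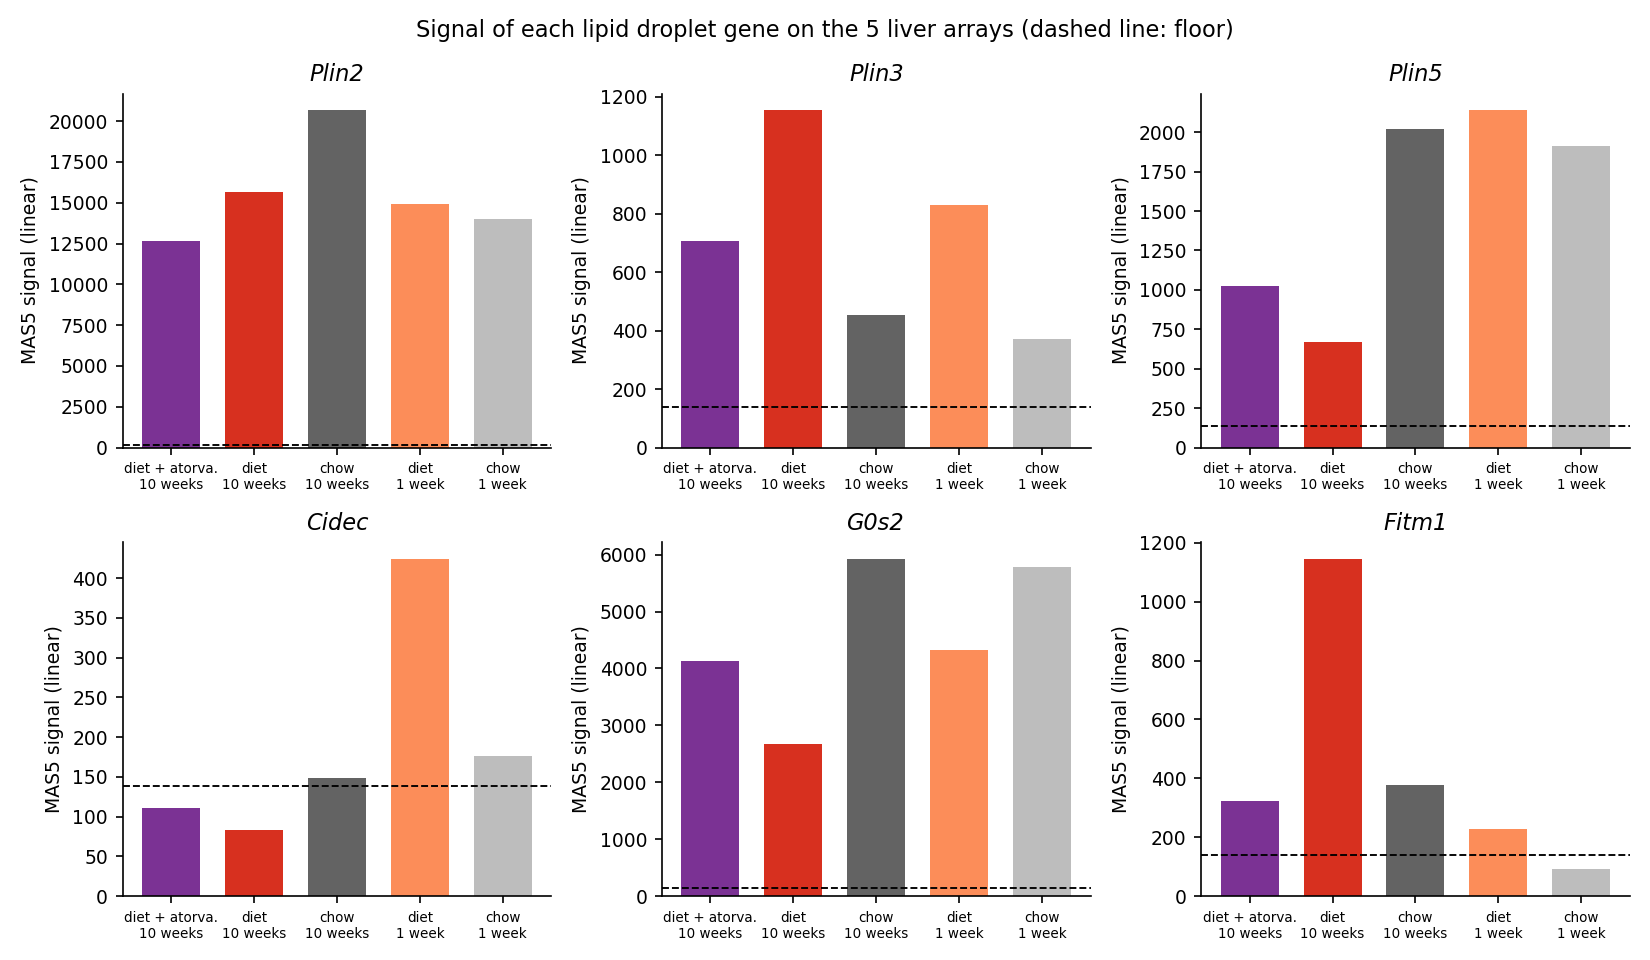
MAS5 signal (linear scale from 0, different for each gene) of the 6 genes on each array, with 1 bar per group and a dashed line at the floor of 138.9. Plin3 stands at 1153 and 829 on the diet arrays without atorvastatin and at 452.5 and 371.5 on the chow arrays. Plin5 stands lowest, at 668, on the 10-week diet array, and Fitm1 highest there, at 1146.

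Plin3 codes for a coat protein found in most tissues that moves from the cytosol onto young droplets. Its signal was 1153 on the 10-week diet array, against 452.5 on the 10-week chow array, a 2.55-fold higher value. Only 1.14% of measured probe sets had a ratio as high. The 1-week array pair showed the same direction, at 829 on the diet and 371.5 on chow, 2.23-fold higher. The chow arrays differed from each other by 1.22-fold.

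Fitm1 codes for an endoplasmic reticulum protein that helps to package triglyceride into droplets and is known mainly from skeletal muscle and heart. Its signal was 1146 on the diet at 10 weeks and 379 on chow at 10 weeks, 3.02-fold higher, with 0.606% of probe sets at least as high. At 1 week it was 229 on the diet, against 90.8, below the floor, on chow, at least 1.65-fold higher. The chow arrays also differed past 2-fold, with the 10-week signal at least 2.73-fold above the 1-week one, and it was the 1 of 6 members past 2-fold in that pair. In the pair 2.44% of probe sets were higher and 2.19% lower. A floor at the 60th percentile put Fitm1 at 0.43 on the log2 scale in the pair. The order of its signals was the diet at 10 weeks, chow at 10 weeks, the diet with atorvastatin (323), the diet at 1 week and chow at 1 week. Of 8 skeletal muscle markers 0 lay above the floor on the 10-week diet array, where Fitm1 was highest, and 2 to 3 on the other arrays. Their summed signal was 611 on that array and 644 to 898 on the others, with most of the markers below the floor on every array. The part of muscle in the Fitm1 signal was not tested. The single probe set leaves no other measurement of Fitm1 on these arrays.

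Plin5 codes for a perilipin of tissues that burn fat, which ties droplets to mitochondria and restrains lipolysis. The signal fell to 668 on the 10-week diet array, against 2019 on the 10-week chow array, 3.02-fold lower, and 0.505% of probe sets had a ratio as low. At 1 week the signals were 2138 on the diet and 1914 on chow, a ratio of 1.12, inside the spread of the chow pair. The 2 chow arrays differed by 1.06-fold. Plin5 thus stood at 1914 to 2138 on both chow arrays and the 1-week diet array. It stood at 668 on the diet at 10 weeks and at 1025 on the diet with atorvastatin. From 1 week to 10 weeks on the diet it was 3.20-fold lower.

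G0s2 codes for a small protein that binds and inhibits Pnpla2, the lipase of the first step of triglyceride breakdown. It had a signal of 2679 on the diet at 10 weeks and 5925 on chow at 10 weeks, 2.21-fold lower, with 2.24% of probe sets at least as low. At 1 week it had 4317 on the diet and 5787 on chow, 1.34-fold lower and inside the spread of the chow pair. The chow arrays differed by 1.02-fold.

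Plin2 codes for the constitutive droplet coat protein of hepatocytes, whose protein is stabilised by the droplets it covers. It was the member with the narrowest range, 1.63-fold over the 5 arrays. Its signal was 15657 on the diet and 20658 on chow at 10 weeks, a log2 ratio of -0.40, and 14925 on the diet and 14011 on chow at 1 week, a log2 ratio of 0.09. The 10-week chow array stood above the 4 others, and the chow pair alone differed by 1.47-fold, more than either diet comparison; after quantile normalization that pair differed by 0.20 on the log2 scale. Set against chow at 1 week instead, the 10-week diet ratio had the other sign, at 0.16.

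Cidec codes for a fusion protein of droplets that is prominent in fat tissue and in fatty liver. It stood out after 1 week, at 424 on the diet and 175.9 on chow, 2.41-fold higher, with 0.508% of probe sets at least as high. On the long arrays it was near or below the floor, at 83.3 on the diet and 148.0 on chow, so that it was at least 1.07-fold lower there. Plin3 and Cidec were the 2 of 6 members higher at 1 week, against 1.34% of 13181 probe sets, and 0 were lower, against 1.61%. The median log2 ratio of the 6 at 1 week was 0.44, and that of all probe sets -0.03. Over all probe sets 176 were higher and 212 lower, and after cyclic loess 255 and 187. The chow signal of Cidec was close to the floor. A floor at the 60th percentile brought its log2 ratio to 0.59, short of 2-fold. Of 7 adipocyte markers 3 lay above the floor on the 1-week diet array and 4 on chow at 1 week. Their sum was 8467 on the diet and 8123 on chow, most of it Car3, a gene that liver also expresses, at 7672 on the diet and 7095 on chow. Fabp4 had 324 on the diet and 338 on chow, and Adipoq and Lep lay below the floor on both. The part of fat cells in the Cidec signal was not tested.

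**Figure D2:**
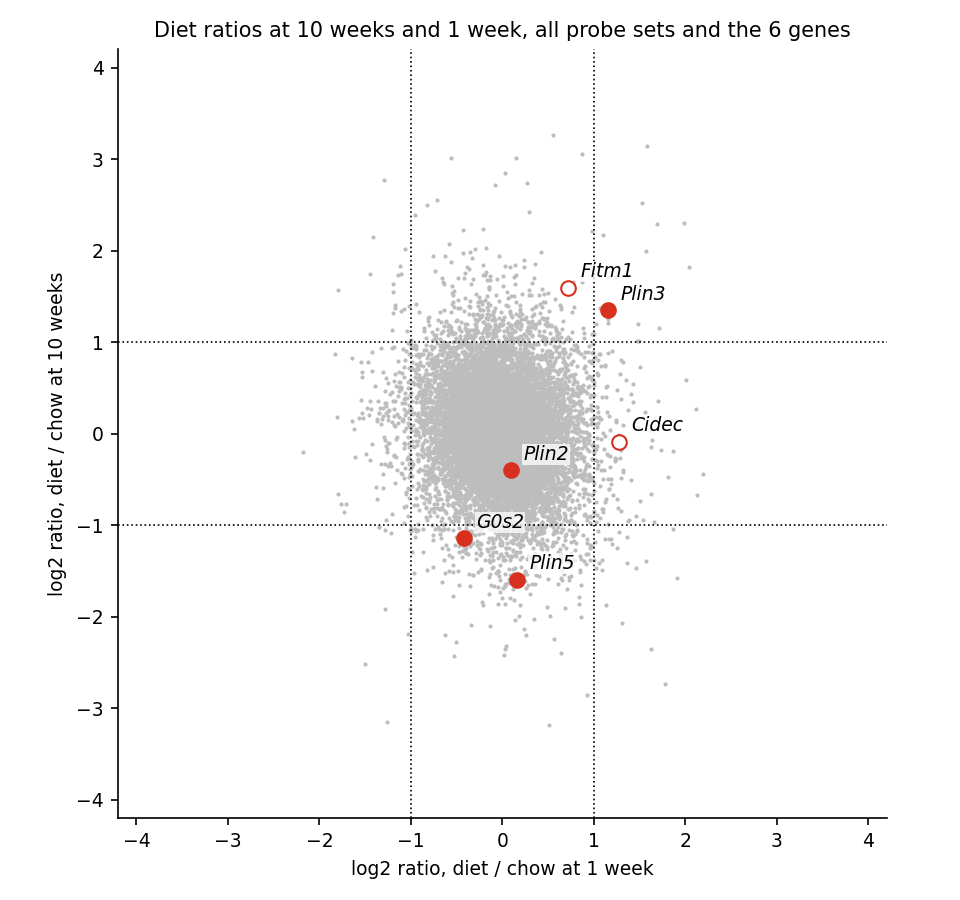
Log2 ratio of diet over chow at 10 weeks (vertical) against that at 1 week (horizontal) for all probe sets measured at both times (grey) and the 6 genes (red), with dotted lines at 2-fold; open circles have an array at the floor. Plin3 alone of the 6 is past 2-fold at both times, at 1.35 and 1.16, while Plin5 is at -1.60 at 10 weeks and 0.16 at 1 week, and Cidec at -0.09 (a bound) and 1.27.

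The diet comparisons at 10 weeks and at 1 week share no array. Comparing the diet arrays themselves, 1 of 6 members was higher at 10 weeks than at 1 week, Fitm1 with a log2 ratio of 2.32, against 5.37% of 13623 probe sets. In the same comparison 2 were lower, Plin5 at 3.20-fold and Cidec at least 3.05-fold, against 4.87%. Those are 731 probe sets higher and 663 lower, a split that became 567 and 782 after cyclic loess and 549 and 727 after quantile normalization. Plin3 was 1.39-fold higher and G0s2 1.61-fold lower. With the floor at the 60th percentile Cidec was short of 2-fold here as well, at -0.59 on the log2 scale.

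Markers of cell types differed between the same arrays, and their part in these results was not tested. The summed signal of 10 hepatocyte markers was 334175 on the 10-week diet array and 453847 on the 10-week chow array, with all 10 ratios below 0 and a median of -0.48. Set beside chow at 1 week, where the hepatocyte sum was 264711, 8 of the 10 marker ratios on the 10-week diet array were above 0, with a median of 0.40. Plin5 and G0s2 were lower against that array too, at -1.52 and -1.11 on the log2 scale. The macrophage and Kupffer cell markers summed to 16369 on the diet and 9368 on chow at 10 weeks, with all 9 measured ratios above 0, a median of 0.77, 4 past 2-fold higher and 0 lower, against 3.63% and 3.07% of genes. Against the 1-week chow array, with a macrophage sum of 14044, 9 of 10 ratios were above 0, with a median of 0.21 against 0.07 for all genes. Of these 0 were past 2-fold higher and 1 lower, against 3.65% and 2.74% of genes, while Plin3 was 3.10-fold and Fitm1 at least 8.25-fold higher. The stellate cell markers summed to 8156 on the diet, 5851 on chow at 10 weeks and 10195 on chow at 1 week. In that list 1 of 7 measured at 10 weeks was past 2-fold higher, the collagen gene Col3a1 at 2.02-fold, and the median was 0.11. The pancreas markers summed to 1498 on the diet, 985 on chow at 10 weeks and 1262 on chow at 1 week. All 4 measured at 10 weeks had ratios above 0, with a median of 0.59, and 1 was past 2-fold, the digestive enzyme gene Ctrb1 at least 2.22-fold higher. The atorvastatin array had the highest macrophage sum, 24311, and had Plin3 at 706 and Fitm1 at 323, both below the diet alone. In these pools fewer cells of a type and less RNA per cell cannot be told apart.

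With atorvastatin on the diet, Fitm1 was the single member past 2-fold relative to the diet alone. It had a signal of 323 with atorvastatin and 1146 without, 3.55-fold lower, and 0.187% of 13877 probe sets had a ratio as low. Thus 1 of 5 measured members was lower, against 2.28% of probe sets, and 0 were higher, against 2.21%. Plin3 had 706 with atorvastatin and 1153 on the diet alone, 1.63-fold lower. Plin5 had 1025 and 668 in the same order, 1.54-fold higher, and G0s2 had 4123 with atorvastatin and 2679 without, also 1.54-fold higher. Plin2 was 12663 with atorvastatin and 15657 on the diet, 1.24-fold lower, and Cidec was below the floor on both arrays. Apart from Fitm1 these ratios lie inside the spread of the chow pair.

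Set against chow at 10 weeks, no member was past 2-fold on the atorvastatin array, 0 higher and 0 lower of 6, against 3.05% and 2.85% of 13820 probe sets. Plin5 came closest, with 1025 under atorvastatin and 2019 on chow, 1.97-fold lower. Plin3 was 1.56-fold higher, G0s2 1.44-fold lower, Plin2 1.63-fold lower and Fitm1 1.17-fold lower. The comparison of atorvastatin with the diet alone shares the 10-week diet array with the comparison of diet and chow, and both chow comparisons share the 10-week chow array. For Plin3, Plin5 and G0s2 the atorvastatin signal lay between those of the 10-week diet and 10-week chow arrays. Against the 1-week chow array Fitm1 was at least 2.32-fold higher under atorvastatin, so its side of the rule depends on which chow array is taken.

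**Figure D3:**
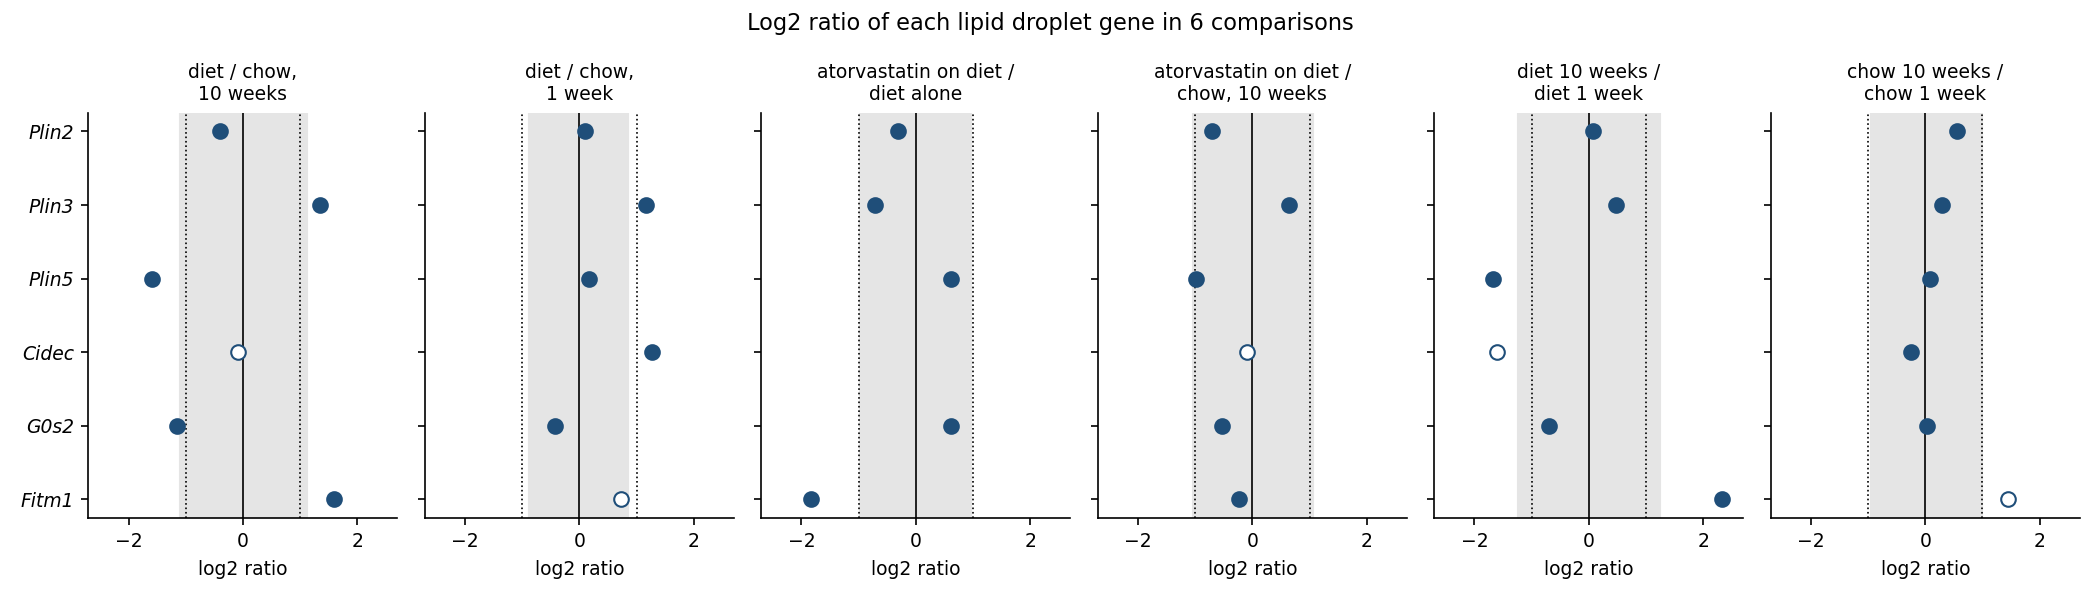
Log2 ratio of each gene in the 6 comparisons, named group over the group after the slash; grey bands hold the central 95% of all measured probe sets, dotted lines mark 2-fold and open circles are bounds. Fitm1 is outside the band in 4 of the 6 panels, at 1.60, -1.83, 2.32 and 1.45, and Plin2 is inside it in all 6.

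Other genes of droplets, lipases and their regulators were described from lists. Of 17 other droplet genes with a probe set 16 were measured at 10 weeks. None was past 2-fold on the diet at its brightest probe set, against 6.7% of all genes. The list median was -0.01, against 0.05 for all genes. Other probe sets of Pcyt1a and Dgat2 were past 2-fold and are given in the last paragraph. Plin4, the perilipin gene beside Plin5, had 373 on the diet and 374 on chow at 10 weeks. Cideb, the liver relative of Cidec, had 4548 on the diet and 3661 on chow, a log2 ratio of 0.31. Hilpda, another inhibitor of Pnpla2, had 84.7, below the floor, on the diet and 250.5 on chow, at least 1.80-fold lower. Bscl2, which codes for the droplet assembly protein seipin, had log2 ratios of 0.63 at 10 weeks and 0.95 at 1 week. At 1 week 0 of 15 measured genes were past 2-fold, against 2.31% of genes. With atorvastatin Lpcat1, a phospholipid enzyme found on droplets, was higher than on the diet alone, at 391 and 194.5, 2.01-fold, the 1 of 15 past 2-fold against 4.33% of genes. It was short of 2-fold with a pseudocount (0.90) or the floor at the 60th percentile (0.47), and its other measured probe set gave 0.75. Lpcat1 also differed between the chow arrays, with 108.9, below the floor, at 10 weeks and 281.7 at 1 week, at least 2.03-fold.

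The lipase list had 1 of 11 members past 2-fold on the diet at 10 weeks, a share near the 6.7% of all genes. That was Pnpla3, a lipid droplet lipase relative known from human fatty liver, at 509 on the diet and 157.7 on chow, 3.23-fold higher. It had 161 with atorvastatin, 3.17-fold lower than on the diet alone. Both ratios were short of 2-fold with the floor at the 60th percentile, at 0.85 and -0.85 on the log2 scale. Its pattern over the long arrays, high on the diet and low on both others, is shared by Fitm1. The share of all genes with this pattern is not given here. Pnpla2, the lipase that G0s2 inhibits, had 1339 on the diet and 1668 on chow at 10 weeks and 2353 on the diet and 2152 on chow at 1 week, all inside 2-fold. Abhd5, the activator of Pnpla2 that binds perilipins, had 423 on the diet and 246.7 on chow at 10 weeks, 1.72-fold higher, while its other probe set gave a log2 ratio of 1.62. On chow at 1 week Abhd5 had 443.3. At 1 week 0 of 11 were past 2-fold, against 2.31% of genes.

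Of the transcription regulators 2 of 9 measured were past 2-fold higher on the diet at 10 weeks and 0 lower, against 3.63% and 3.07% of genes. These were Mlxipl, the carbohydrate response factor, at 3047 on the diet and 1281 on chow, and Srebf1, the sterol regulatory factor of lipogenesis, at 3729 on the diet and 1737 on chow. Srebf1 also differed 2.78-fold between the chow arrays, higher at 10 weeks than at 1 week. Among the long arrays Srebf1 and Mlxipl were highest on the diet, as Pnpla3 and Fitm1 were. With atorvastatin against the diet alone their log2 ratios were -0.95 and -0.71, short of 2-fold. Ppara, the gene of PPAR alpha, had 2650 on the diet and 3785 on chow at 10 weeks (log2 -0.51) and 3007 on the diet and 2133 on chow at 1 week (log2 0.50). Pparg and Ppard lay below the floor on every array. The PPAR alpha targets had a median of -0.42 on the diet against chow at 10 weeks, beside 0.05 for all genes and -0.48 for the hepatocyte markers. With chow at 1 week as the reference these medians were -0.26, 0.07 and 0.40. Of 17 targets measured 3 were past 2-fold lower on the diet at 10 weeks and 0 higher, against 3.07% and 3.63% of genes. They were Acot1, an acyl-CoA thioesterase gene (4.11-fold lower), Pdk4, a kinase gene that spares glucose (3.78-fold lower), and Fgf21, which codes for a liver hormone of fasting (at least 4.27-fold lower). Angptl4, which codes for a lipoprotein lipase inhibitor, had a log2 ratio of -0.23. For the diet against chow at 1 week the list median was 0.13, against -0.03 for all genes. At the brightest probe sets Pdk4 was the 1 of 17 past 2-fold (-1.01), against 2.31% of genes. Pdk4 was short of 2-fold there with quantile normalization, cyclic loess or a pseudocount. With atorvastatin Acot1 was 2.35-fold higher than on the diet alone. At the brightest probe sets Acot1 was the 1 of 17 past 2-fold, against 4.33% of genes in either direction. Against chow at 10 weeks 3 of 17 targets were lower on the atorvastatin array and 0 higher, beside 5.56% of genes past 2-fold in either direction. They were Pdk4 (-1.94), Fgf21 (-1.76) and Ehhadh (-1.07), a peroxisomal fatty acid oxidation gene. Ehhadh was short of 2-fold after quantile normalization (-0.97) and cyclic loess (-0.97), which leaves 2 of 17.

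**Figure D4:**
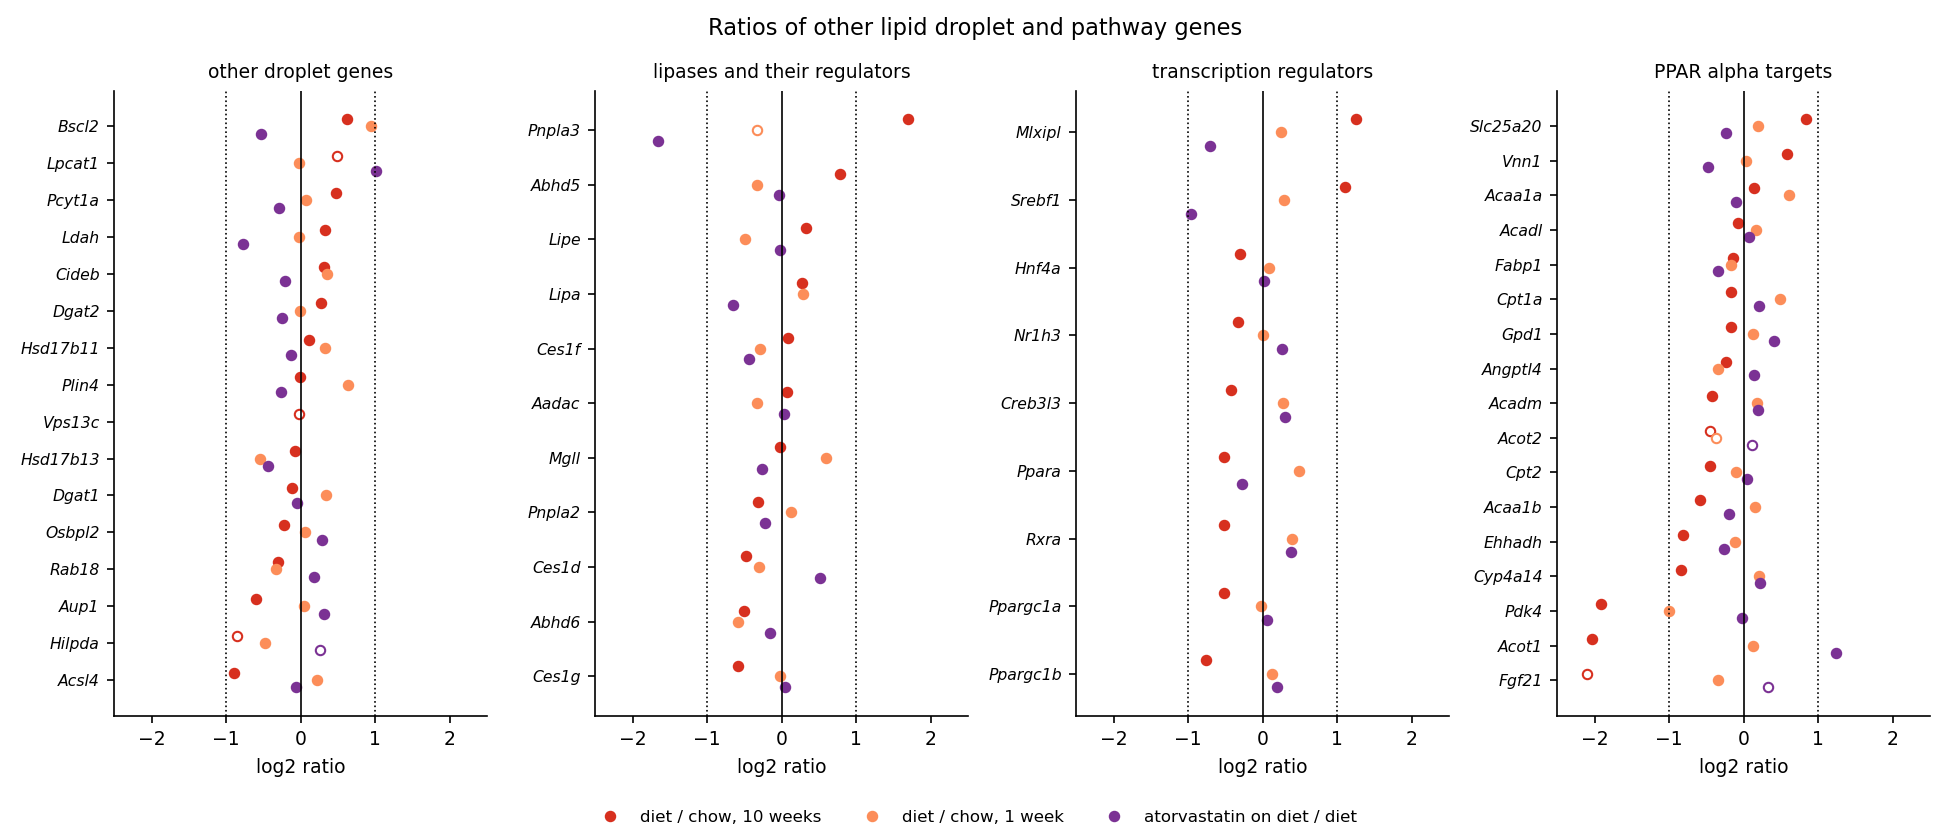
Log2 ratios of the listed genes measured at 10 weeks, in 3 comparisons (red, diet over chow at 10 weeks; orange, diet over chow at 1 week; purple, atorvastatin on the diet over the diet alone), with dotted lines at 2-fold and open circles for bounds. Acot1 (-2.04), Fgf21 (-2.10, a bound) and Pdk4 (-1.92) lie farthest left among the red points, and Pnpla3 (1.69) farthest right.

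Genes with a like course over the 5 arrays were ranked by the root mean square difference of log2 signals, each gene centred on its own mean, among genes above the floor on all arrays with a range of at least 1. The 3 nearest were named for each of the 4 members above the floor on all arrays, out of 1514 genes, or 1515 for Plin2. Nearest to Plin5 were Ybx3 (0.044), Tmed5 (0.098) and Tab2 (0.14), and all 3 were also among the nearest with quantile normalization. Ybx3, a cold shock domain protein gene, had 552 on the 10-week diet array and 1608 on the 10-week chow array. For Plin3 they were Junb (0.14), an immediate early transcription factor gene, Bco2 (0.16), which codes for a carotenoid-cleaving enzyme, and Upp2 (0.19). For G0s2 they were Sgf29 (0.071), Ice1 (0.10) and Atp1b1 (0.10). For Plin2 they were Stat5a (0.15), Mov10 (0.15) and the chaperone gene Hyou1 (0.15). The range of Plin2 itself was short of 1, so genes as flat as Plin2 were not among those ranked. With quantile normalization 6 of these 12 pairs were kept, and none of those of Plin2. With 5 arrays and this many genes such closeness is a description only.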

How the data were processed

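The values the authors deposited are intensities on a linear scale, a MAS5 signal for each probe set, per the submitters' processing notes. Settings and version are not given there. The 2% trimmed mean of every deposited column was close to 500.2, and rescaling to a common value moved no signal by more than 0.0026%. Control probe sets, 64 in all, were not used. Of 22690 probe sets 20380 others have 1 symbol, 691 several, and 1555 are not listed in the platform annotation and unnamed here. Of their gene identifiers 99.86% matched the GRCm38.p6 gene table, and 0 symbols changed. A signal at or below the 40th percentile was set to it before taking log2. Genes with several probe sets were represented by the brightest; each of the 6 members has 1. Depth per sample does not apply to arrays, and their number limits the precision: with 1 array per group no test, p-value or replicate check was possible.

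The members and lists were chosen with earlier results of these data known. Named genes are the members, the listed genes past 2-fold in any of 4 comparisons (at most 6 per list and comparison), a preset group of genes where measured, and 3 genes of like course per member; Bscl2, Ppard, Col3a1, Ctrb1 and the single adipocyte markers were named after their values were seen. Preset Plin1 and Fitm2 have no probe set with 1 symbol here, and Cidea and Pparg lay below the floor. As alternatives, cyclic loess (limma 3.58.1), quantile normalization and no rescaling were tried, as were a pseudocount of 32, a floor at percentile 20 or 60, rules of 1.5-fold and 3-fold, other chow references and the mean of all probe sets. Computations used Python 3.11.15 and R 4.3.3. The 250-base promoter windows were cut from RefSeq's 300-base windows.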

Additional observations from a re-analysis of the deposited data

Results flagged for a closer look

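The diet ratios of 3 members had opposite signs at the 2 feeding times, a difference that was not tested, since each group is 1 array. The log2 ratio of Plin5 was -1.60 at 10 weeks and 0.16 at 1 week, a difference of -1.76. That of Cidec was -0.09 at 10 weeks, a bound, and 1.27 at 1 week, a difference of at most -1.36. That of Plin2 was -0.40 at 10 weeks and 0.09 at 1 week, a difference of -0.49, with both ratios inside 2-fold.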

How the results depend on the processing

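No paired analysis was possible because each group is 1 array, and for the same reason no array of a group could be left out. No called ratio of a member or listed gene reversed. Of 334 alternative ratios 316 kept their side of the 2-fold rule, 15 fell short of it and 3 passed it. At 10 weeks on the diet, Plin3, Fitm1, Plin5 and G0s2 stayed past 2-fold under all 6 settings of normalization, floor and pseudocount and both other chow references. Plin3 ranged from 1.29 to 1.63, Fitm1 from 1.52 to 3.04, Plin5 from -1.61 to -1.52 and G0s2 from -1.15 to -1.06 on the log2 scale. Fitm1 under atorvastatin against the diet ranged from -1.87 to -1.73. Counts of members changed as follows. The 3-fold rule left 1 higher and 1 lower for the diet at 10 weeks, 0 higher at 1 week and 0 higher for the chow pair. The 1.5-fold rule gave 2 higher and 2 lower for atorvastatin against the diet, 1 higher and 2 lower for atorvastatin against chow, 3 higher for the diet at 1 week and 3 lower for the diet at 10 weeks against 1 week. The shares of all probe sets past 1.5-fold and 3-fold are not given here, so member counts under these rules have no background beside them. The floor at the 60th percentile left 1 higher for the diet at 1 week, 1 lower for the diet at 10 weeks against 1 week, and 0 higher for the chow pair. The 1-week chow array as reference gave 1 higher for atorvastatin, Fitm1. At 1 week on the diet Fitm1 reached 1.33 with the lower floor and 1.09 with a pseudocount, which makes 3 higher there. Of 320 counts of listed genes 56 moved by more than 1.5 times. The share of all probe sets past 2-fold on the diet at 10 weeks was 4.55% for the higher floor and 16.1% for the lower one, 11.9% with a pseudocount and 4.48% with the mean of both chow arrays. From the higher to the lower floor it ran from 1.93% to 8.68% for the diet at 1 week, 2.07% to 13.1% for atorvastatin against the diet, 3.25% to 14.7% for atorvastatin against chow, 7.86% to 18.1% for the diet at 10 weeks against 1 week and 2.98% to 12.5% for the chow pair. Signals near the floor, those of Cidec and of Fitm1 on chow at 1 week, are the least precise here. The cause of these shifts was not tested.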

Other observations

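Probe sets of a single gene did not always give like ratios among the listed genes, and each of the 6 members has just 1. On the diet at 10 weeks the brightest probe set of Lipa, the lysosomal acid lipase gene, had a log2 ratio of 0.27, and its 2 others had 1.22 and 2.74. For Dgat2, which codes for the last enzyme of triglyceride synthesis, the values were 0.28 and 1.27, and for Slc25a20, a mitochondrial carnitine carrier gene, 0.84 and -0.52. The brightest probe set of Pcyt1a, from the list of other droplet genes, had 0.48, and its 3 others ranged from -1.53 to 0.42. At 1 week the brightest probe set of Cpt1a, the gateway enzyme gene of mitochondrial fatty acid oxidation, had 0.48 and its 2 others 1.64 and 2.13. For Acaa1a, from the list of PPAR alpha targets, the brightest and the other probe set had 0.14 and -1.87 on the diet at 10 weeks. They had 0.61 and 1.13 on the diet at 1 week, and -0.11 and 1.78 with atorvastatin against the diet alone. Averaging all probe sets of a gene, 3 of 11 lipase genes were past 2-fold higher on the diet at 10 weeks, Lipa and Abhd5 beside Pnpla3, against 2.93% of 9277 genes averaged in the same way. Lipa and Abhd5 were also lower on the 10-week than on the 1-week chow array. The log2 ratios of that pair were -0.33, -0.70 and -1.68 for Lipa and -0.85 and -0.78 for Abhd5. The genes of this paragraph were named after their values were seen.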
